A study of Mus musculus and Homo sapiens with 10 samples.

Results

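Khdc1a, Khdc1c, Prex2, Hunk, Neb, Tgfbr3, Bbx, Pgap1 and Gja1 were examined here because their RNA answered vitamin C (vitC) unequally in mouse embryonic stem cells (mESCs) of different cultures. They are 9 of the 25899 genes in the mESC table, and they were picked from these measurements by the difference between a vitC-treated library and the control of the same culture, in cultures 10 and 11 beside cultures 35B and 35C, together with the control level of each set. Their differences and control levels are therefore given as a description and not as a test.

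All 8 mESC libraries were from E14, an established mESC line, and were labelled total RNA. Every culture was grown in serum-free 2i medium with LIF, in which PD-035901 blocks the MAPK/ERK pathway and CHIR-99021 blocks GSK3β, controls included. The control group held 4 untreated libraries and the vitC group 4 libraries from cells given 100 µg/ml for 24 h, 1 of each from cultures 10, 11, 35B and 35C. A pair of H9 human embryonic stem cell (hESC) libraries, 1 control and 1 vitC-treated at the same dose and time, was labelled polyA RNA. The labels give KSR/FGF medium for the hESCs, which the methods give for H9-NK2, a derivative with doxycycline-inducible KLF2 and NANOG transgenes, while they keep unmodified primed H9 in fibroblast-conditioned medium, so which of these lines was sequenced is not settled here. The labels do not say what separates cultures 10 and 11 from 35B and 35C, nor whether each pair is an independent biological culture, so the spread between pairs may be partly technical.

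VitC keeps the iron of oxoglutarate-dependent dioxygenases in its reduced form, and these enzymes include the TET proteins that oxidise 5-methylcytosine and the Jumonji histone demethylases. mESCs in 2i are in a ground state of pluripotency with little DNA methylation, and the addition of vitC is known to lower that methylation further. The 9 genes have unrelated textbook roles. Khdc1a and Khdc1c belong to a family of KH-domain proteins of the oocyte and early embryo. Tgfbr3 (betaglycan) is a co-receptor for TGF-β ligands and inhibin, Prex2 is an exchange factor that activates the GTPase Rac, and Hunk is a kinase related to AMPK. Bbx is a transcription factor with an HMG box, Pgap1 removes an acyl chain from GPI anchors in the endoplasmic reticulum, Neb encodes the giant thin-filament protein nebulin, and Gja1 encodes the gap junction protein connexin 43.

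Khdc1a and Khdc1c are near copies, which limits how far their reads can be told apart. In GRCm38, Khdc1a (ENSMUSG00000067750.3) lies on the plus strand of chromosome 1 from 21349641 to 21352200 and Khdc1c (ENSMUSG00000041722.7) from 21368331 to 21370845, 16130 bp further on. Their coding sequences of 498 bases were identical at 497 positions, and the only substitution was T416C, written with the Khdc1a base first and counted from 1 at the start of the coding sequence. The 30 coding bases around it (positions 401 to 430) lie in exon 3 of 3 of both genes, at chr1:21350993-21351022 and chr1:21369627-21369656, and are shown because they hold the one coding base, in capitals, that separates these genes.
Khdc1a: aagttcctcacttctTgaggtttcctttga
Khdc1c: aagttcctcacttctCgaggtttcctttga
Over whole transcripts, 56.5% of the 50-base words of Khdc1a and 56.9% of those of Khdc1c occurred in no other annotated gene. Of 843 Khdc1a words found elsewhere, 818 were shared with Khdc1c. Some words of both genes also occurred in Khdc1b or in a further annotated gene, Gm2709. The division of reads between both genes is therefore uncertain, while their joint level is less so, apart from reads that Khdc1b or Gm2709 could give.

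Across the series, gene reads recovered from the deposited values numbered between 3354852 and 6921305 per mESC library. The culture sets stood apart before any treatment. The first principal component, with 61.9% of the variance, separated cultures 10 and 11 from 35B and 35C, and the second, with 14.3%, separated vitC from control. Naive pluripotency markers such as Nanog and Esrrb summed to between 5189 and 5732 CPM (gene reads scaled to a common library total) in every library, and none of the 14 was at 0. Tfcp2l1 alone gave 1543 to 2258 CPM of this sum. In the controls, limma called 3 of the 14 higher in cultures 10 and 11 and 2 lower, beside 11.6% and 8.9% of all genes. Dppa3 was at 26.1 and 15.8 CPM there against 2.90 and 4.19 CPM in 35B and 35C, and Nr0b1 at 62.0 and 69.6 CPM against 116.7 and 111.5 CPM. Core pluripotency markers summed to between 2344 and 2640 CPM in cultures 10 and 11 and between 2806 and 2933 CPM in 35B and 35C, with none of 5 at 0, while Sox2 went the other way in the controls. Primitive endoderm markers summed to between 414 and 440 CPM against 173 and 205 CPM, with none of 10 at 0 in every library. Most of that sum was Lama1, at 341 and 332 CPM in the controls of cultures 10 and 11 and 163 and 132 CPM in those of 35B and 35C, whereas Sox7 was lower in the former (0.324 and 0.385 CPM against 1.11 and 2.17 CPM) and the Gata4 controls overlapped. Trophoblast markers summed to between 75.3 and 89.1 CPM against 45.3 and 57.9 CPM, with Elf5 and Hand1 of 11 at 0 everywhere and Krt8 lower in the controls of cultures 10 and 11 (by limma -0.28, adjusted p = 0.0235). Of the 9 tested, 2 were called higher in those controls. These were Tfap2a (31.3 and 27.4 CPM against 15.15 and 9.54 CPM) and Cdx2 (18.8 and 16.6 CPM against 2.67 and 1.01 CPM). Mesendoderm markers summed to between 23.4 and 26.6 CPM against 9.70 and 14.6 CPM, with Mesp1, Cer1 and Lhx1 of 9 at 0 in every library. Most of the higher sum was T, at 15.4 and 18.5 CPM in the controls of cultures 10 and 11 and 2.005 and 1.01 CPM in those of 35B and 35C. Eomes went the other way in the controls, at 5.19 and 5.78 CPM against 7.13 and 10.3 CPM. The sums of primed epiblast markers, 428 to 480 CPM against 483 to 565 CPM with Cer1 of 9 at 0, did not overlap, and those of fibroblast markers did, at 18.5 to 29.7 CPM against 22.1 to 33.2 CPM with Dcn and Twist2 of 10 at 0. Ribosomal RNA took 42.0% to 51.5% of the counts over repeats in cultures 10 and 11 and 60.0% to 63.1% in 35B and 35C. The part that these shifts have in the results on the 9 genes was not tested. In such bulk libraries, fewer cells of a type and less RNA per cell cannot be told apart.

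The unequal response was called only in paired fits. Differences were fitted with limma on the deposited variance-stabilised values, a log2-like scale that compresses the change of low genes, over the 14631 genes that had at least 1 read in at least 4 of the 8 libraries. All 9 genes passed this filter, Khdc1a (5 libraries) and Khdc1c (6 libraries) only through cultures 10 and 11. Without the pairing of libraries by culture, 0 of 14631 genes (0.0%) had an adjusted p up to 0.05 for the difference in vitC response between the sets, and 601 (4.11%) had an unadjusted p up to 0.05. edgeR and DESeq2 on the recovered reads called 0 as well, with 529 and 113 genes at an unadjusted p up to 0.05. With the replicate number as a block, limma called 13 genes (0.0889%), 10 with the higher response in cultures 10 and 11 and 3 with the higher response in 35B and 35C, and these included all 9 genes. The other 4, named here because their calls were seen, were Peg10, Lars2, Zfp454 and Gm15564. edgeR with the block called 35 genes (0.239%), of which 6 were Prex2, Hunk, Tgfbr3, Bbx, Pgap1 and Gja1. As the 9 genes were chosen from this contrast, their calls restate the choice.

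In the plot of CPM by library, the 9 genes fall into groups that differ in the direction of the vitC difference, and the following paragraphs take them by that direction. Tgfbr3, Bbx and Pgap1 were higher with vitC in one set and lower in the other, Khdc1a and Khdc1c were near 0 in one set, and Prex2, Neb, Hunk and Gja1 were higher with vitC in all 4 pairs, as were 15.4% of all genes tested.

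**Figure D1:**
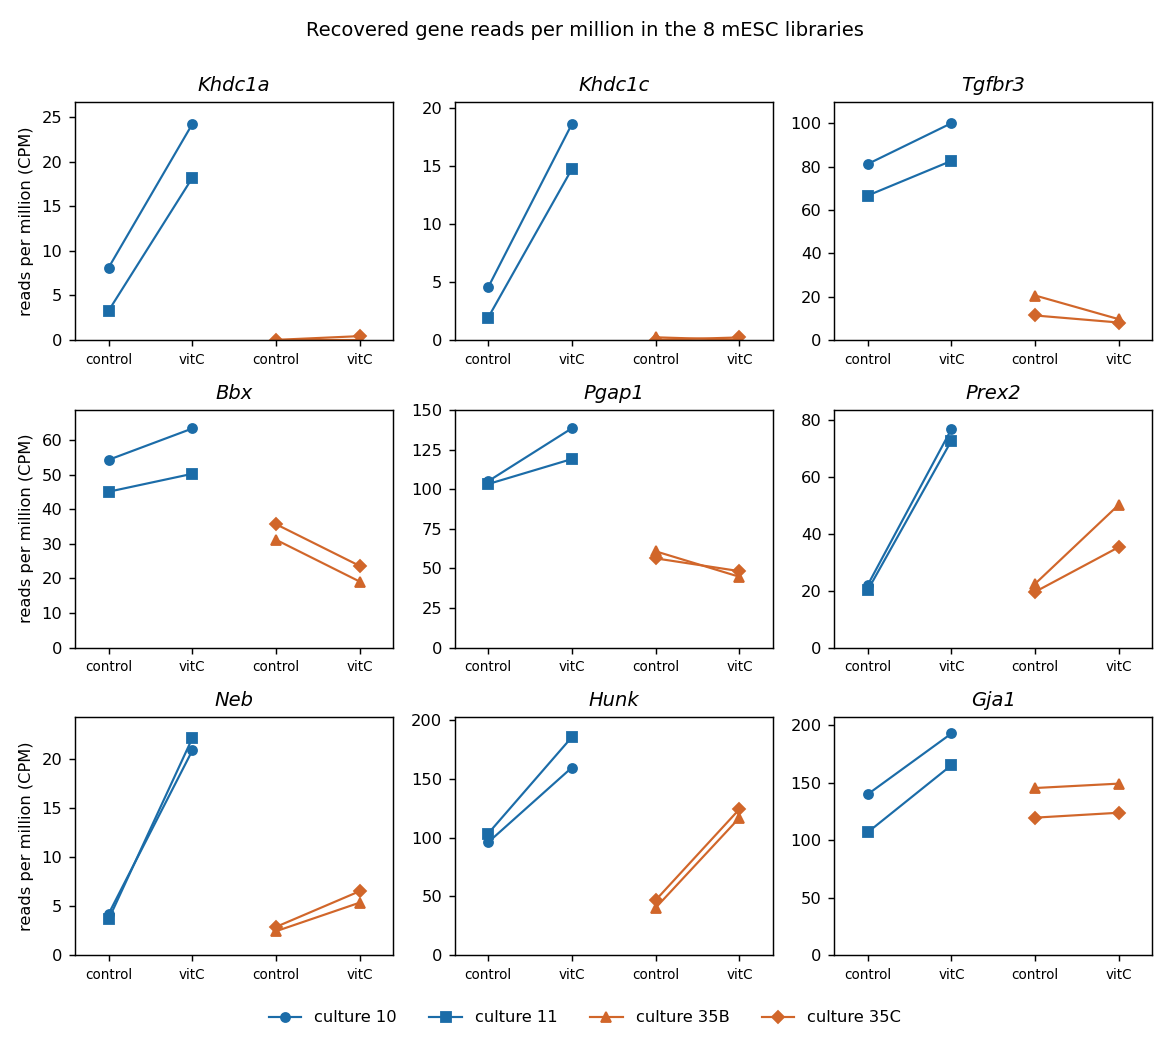
CPM from recovered reads (linear axes from 0) of the 9 genes in the 8 mESC libraries; a line joins the control and the vitC library of 1 culture, blue for cultures 10 and 11 and orange for 35B and 35C. Khdc1a and Khdc1c stayed at or below 0.422 CPM in 35B and 35C, and the lines of Tgfbr3, Bbx and Pgap1 slope in opposite directions in the sets.

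Khdc1a and Khdc1c were read almost entirely in cultures 10 and 11. Khdc1a had 50 and 17 reads in the controls of cultures 10 and 11 and 130 and 106 reads with vitC, against 0 and 0 reads in the controls of 35B and 35C and 0 and 2 reads with vitC. For Khdc1c the counts were 28 and 10 in the controls and 100 and 86 with vitC in cultures 10 and 11, and 1 and 0 in the controls and 0 and 1 with vitC in 35B and 35C. The sets did not overlap for either gene in either condition. In cultures 10 and 11, Khdc1a went from a mean of 5.69 to 21.2 CPM (3.73-fold) and Khdc1c from 3.23 to 16.7 CPM (5.16-fold). In 35B and 35C no fold is given, because both conditions were at or under the 3 reads that a count of 0 allows.

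Set against set, the Khdc1a control level was at least 22.4-fold higher in cultures 10 and 11, with a floor of 3 reads over the pooled libraries of 35B and 35C. With vitC the ratio was 85.4 (95% counting interval 23.4 to 709). The Khdc1c ratio was 38.2 (6.45 to 1548) in the controls and 134.6 (23.9 to 5345) with vitC, on 1 read in 35B and 35C in each condition. These intervals cover counting error only, on reads pooled over the cultures of a set. As the genes were chosen with these levels, the intervals are no test of a difference between the sets. A vitC response of either gene in 35B and 35C was not detectable at this depth, and on these reads the fitted difference of Khdc1a between the sets took the opposite sign in edgeR (-1.65 on the log2 scale). Khdc1b, the third gene of this family in the table, had 8 and 5 reads in the vitC libraries of cultures 10 and 11 and 0 in the other six, and was too low for the fit. Its coding sequence was identical to that of Khdc1a at 93.7% of 378 aligned bases, and 96.3% of its 50-base words were its own.

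Tgfbr3, Bbx and Pgap1 were higher with vitC in both pairs of cultures 10 and 11 and lower in both pairs of 35B and 35C. Tgfbr3 was at 81.3 and 66.7 CPM in the controls of cultures 10 and 11 and at 100.1 and 82.7 CPM with vitC, and at 20.5 and 11.3 CPM in the controls of 35B and 35C and 9.54 and 8.01 CPM with vitC. The co-receptor was thus lower in every 35B and 35C library than in any library of cultures 10 and 11. Its mean control level was 4.66-fold higher in cultures 10 and 11, and with vitC the mean level was 10.4-fold higher.

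Bbx was at 54.3 and 45.1 CPM in the controls of cultures 10 and 11 and at 63.4 and 50.3 CPM with vitC. In 35B and 35C it was at 31.2 and 35.7 CPM without and 19.1 and 23.6 CPM with vitC. The HMG-box gene had the smallest gain of the 9 in cultures 10 and 11, 1.14-fold, which was less than the gap between those cultures, and stood at 0.638 of its control level in 35B and 35C, where the vitC libraries lay below both controls. Pgap1 went from 105.1 and 103.3 CPM to 138.5 and 119.1 CPM in cultures 10 and 11, and from 60.8 and 56.3 CPM to 44.7 and 48.3 CPM in 35B and 35C. Control and vitC libraries of this gene did not overlap within either set.

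Over all genes tested, 4.65% were higher in both pairs of cultures 10 and 11 and lower in both pairs of 35B and 35C, so the pattern itself was not rare. With a minimum of 0.1 on the log2-like scale in every pair and either direction, 0.431% showed opposite signs, among them all 3 of these genes. That minimum lies just under their smallest difference in size, 0.12 for Bbx, and the genes were chosen from these differences. Passing it is therefore no support, and the share is no measure of how rare they are. Tgfbr3 differed by 0.24 and 0.25 on that scale in cultures 10 and 11 and by -0.49 and -0.19 in 35B and 35C. The corresponding differences were 0.17, 0.12, -0.39 and -0.35 for Bbx and 0.34, 0.18, -0.30 and -0.15 for Pgap1.

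**Figure D2:**
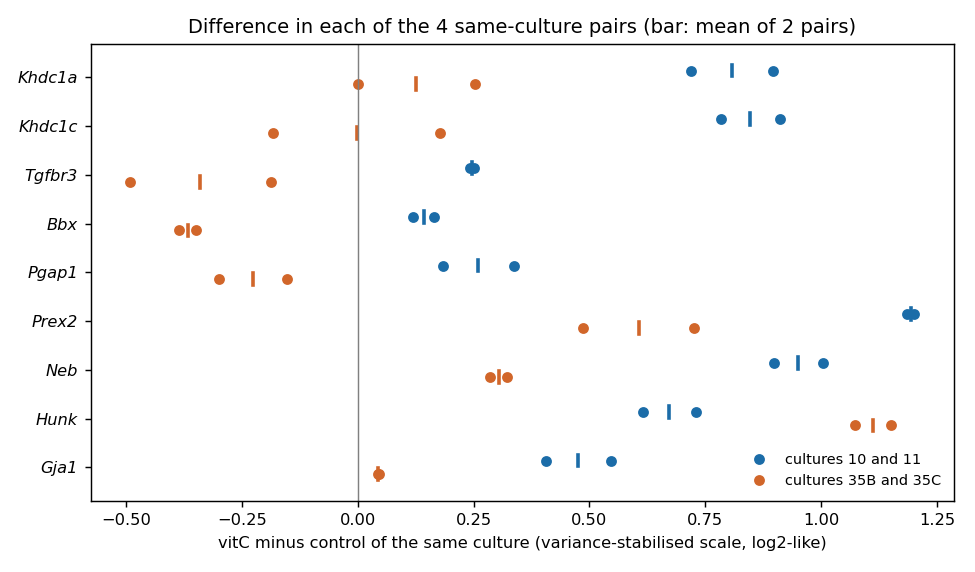
Difference between the vitC and the control library of 1 culture for each of the 9 genes (x axis, deposited log2-like scale); points are single pairs and bars the mean of 2 pairs. The pairs of the sets overlap for none of the 9 genes, and Hunk alone has its larger differences in 35B and 35C.

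Prex2 and Neb were higher with vitC in every pair, with larger differences in cultures 10 and 11. Prex2 controls were alike in all cultures, at 22.1, 20.2, 22.5 and 19.6 CPM in 10, 11, 35B and 35C. With vitC they reached 77.0 and 72.9 CPM in cultures 10 and 11 (3.55-fold) and 50.4 and 35.4 CPM in 35B and 35C (2.04-fold). The Rac exchange factor therefore started from like levels and separated by set with vitC. Neb had few reads, 26 and 19 in the controls of cultures 10 and 11 and 112 and 129 with vitC, and 11 and 20 in the controls of 35B and 35C and 18 and 31 with vitC. In CPM its mean was 5.46-fold higher with vitC in the former and 2.23-fold higher in the latter. Control levels lay between 2.45 and 4.22 CPM, and per kilobase of exon nebulin RNA was the lowest of the control means of cultures 10 and 11 among these genes, at 0.148 CPM per kb, where Gja1 was the highest, at 12.02.

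Hunk was the only one of the 9 with the larger vitC difference in 35B and 35C. The kinase gene was at 96.0 and 103.5 CPM in the controls of cultures 10 and 11 and at 159.6 and 185.5 CPM with vitC (1.73-fold), and at 40.3 and 46.8 CPM in the controls of 35B and 35C and 116.8 and 124.2 CPM with vitC (2.77-fold). The sets were further apart before treatment, 2.29-fold in the control means, than after it, 1.43-fold. Even so, the lowest vitC library of cultures 10 and 11 remained above the highest of 35B and 35C. On the log2-like scale the difference was 0.62 and 0.73 in the former and 1.15 and 1.07 in the latter.

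Gja1 had the most reads of the 9, between 500 and 1033 per library. The connexin gene was at 139.8 and 106.8 CPM in the controls of cultures 10 and 11 and at 192.6 and 165.1 CPM with vitC (1.45-fold). In 35B and 35C it was at 145.2 and 119.5 CPM without and at 149.0 and 123.7 CPM with vitC (1.03-fold), a difference smaller than that between these 2 cultures. Control levels of the sets overlapped. Like Prex2, Gja1 was separated by set with vitC and not before it.

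Side by side, the response in cultures 10 and 11 minus that in 35B and 35C on the log2-like scale was 0.85 for Khdc1c (standard error from the pairs 0.19), 0.68 for Khdc1a (0.15), 0.65 for Neb (0.056), 0.59 for Prex2 (0.12), 0.59 for Tgfbr3 (0.15), 0.51 for Bbx (0.029), 0.49 for Pgap1 (0.11), 0.43 for Gja1 (0.070) and -0.44 for Hunk (0.069). These errors rest on 2 pairs in each set for genes chosen by the same differences, so they are no measure of certainty. In the main limma fit they were larger for Bbx (0.129), Neb (0.115) and others, and smaller for Khdc1c (0.155) and Pgap1 (0.104). By size the differences placed Khdc1c at rank 2 and Gja1 at rank 55 of 14631, with the others between. Pairs of cultures 10 and 11 both above those of 35B and 35C were found in 19.1% of all genes and the reverse in 17.0%, so a lack of overlap between pairs was common. For comparison, the median difference over all genes was 0.005.

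**Figure D3:**
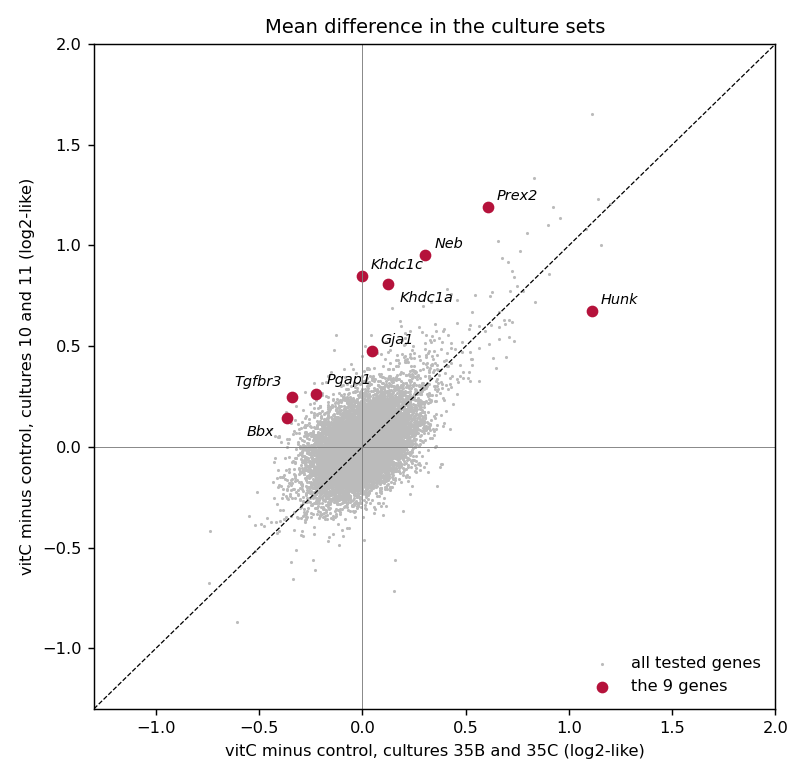
Mean vitC minus control difference in cultures 35B and 35C (x axis) against that in cultures 10 and 11 (y axis), both on the log2-like scale, for the 14631 genes tested (grey) and the 9 genes (red); the dashed line marks equal differences. Hunk lies below the line, at 1.11 and 0.67, and the other eight above it.

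Control levels of the sets were part of the choice and differed widely over the whole table. limma called 3004 genes (20.5%) between the controls, 1302 of them (8.9%) lower and 1702 (11.6%) higher in cultures 10 and 11. Khdc1a, Khdc1c, Hunk, Tgfbr3, Bbx and Pgap1 were among those higher in cultures 10 and 11, while Prex2, Neb and Gja1 were not called. Without control replicate 1 or control replicate 3, Bbx was no longer called. Both controls of cultures 10 and 11 lay above both of 35B and 35C for 30.7% of all genes. The mean vitC difference over both sets was called for 838 genes (5.73%), 531 of them (3.63%) higher with vitC, and the latter included Khdc1a, Khdc1c, Prex2, Hunk, Neb and Gja1. The Gja1 call was lost without vitC replicate 1, 2 or 3 or control replicate 2 or 4, and also with DESeq2, without a filter, with quantile normalization and with eBayes without trend (adjusted p = 0.0838, 0.103, 0.0729 and 0.0930). The mean calls of Khdc1a and Khdc1c, read almost entirely in cultures 10 and 11, were lost with edgeR and DESeq2 without the block. Adjusted p was 0.200 and 0.556 with edgeR, and 0.191 and 0.703 with DESeq2. With edgeR and the block, Khdc1a was called and Khdc1c was not (adjusted p = 0.0444 and 0.447). Each of these contrasts shares control libraries with the difference in response, so they are not separate evidence.

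Gene span was not used in the choice. The 9 genes had a median annotated span of 113541 bp, against 24396.5 bp for the 12258 protein-coding genes tested, and 6 of 9 spanned at least 80000 bp, against 18.03% of all. Prex2 (310217 bp), Neb (241828 bp) and Bbx (240547 bp) had the longest spans, and Khdc1a (2560 bp) and Khdc1c (2515 bp) the shortest. The median exonic length of the 9 was larger as well, 10257 bp against 4433.5 bp. Whether exonic length had a part in the choice was not tested. Over all protein-coding genes tested, the median vitC difference in cultures 10 and 11 went from -0.02 under 10 kb to 0.06 at 200 kb or more, and that in 35B and 35C from -0.02 to 0.01. The share of genes with the larger difference in cultures 10 and 11 went from 47.1% to 62.5%. The controls moved with span as well, by a median of -0.05 (cultures 10 and 11 minus 35B and 35C) under 10 kb and 0.12 at 200 kb or more. These shifts over all genes were small beside the differences of the 9 genes, the libraries are the same throughout, and genes are not independent replicates.

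**Figure D4:**
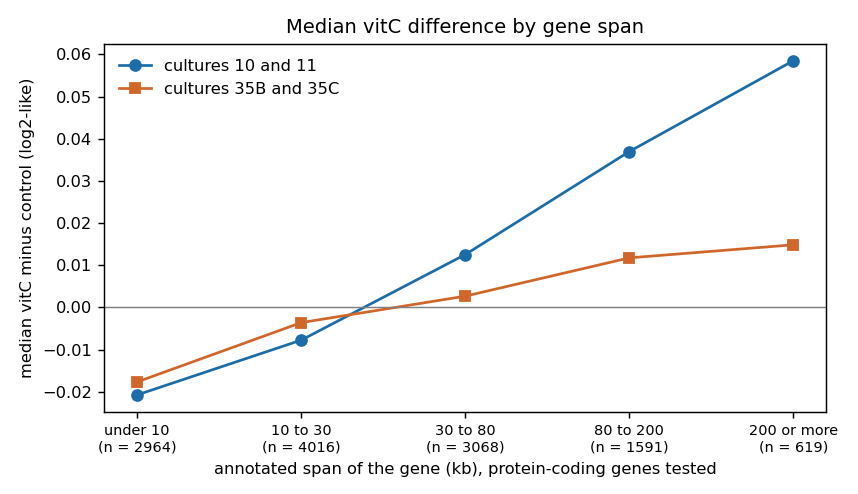
Median vitC minus control difference (y axis, log2-like scale) of the protein-coding genes tested, by annotated span in kb (x axis, number of genes in brackets), in cultures 10 and 11 (blue) and 35B and 35C (orange). The sets lie together under 30 kb and apart above 80 kb, where the medians reach 0.06 and 0.01 in the last bin.

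4 of the 9 genes were on chromosome 1, where 5.59% of the tested protein-coding genes lie, but Khdc1a and Khdc1c are neighbours and one locus. Prex2 (ENSMUSG00000048960.13) lies there from 10993465 to 11303681 on the plus strand and Pgap1 (ENSMUSG00000073678.4) from 54472994 to 54557684 on the minus strand. Hunk (ENSMUSG00000053414.8) is on chromosome 16 from 90386013 to 90499553 (plus) and Bbx (ENSMUSG00000022641.15) from 50191844 to 50432390 (minus). Neb (ENSMUSG00000026950.17) is on chromosome 2 from 52136647 to 52378474 (minus), Tgfbr3 (ENSMUSG00000029287.14) on chromosome 5 from 107106570 to 107289629 (minus) and Gja1 (ENSMUSG00000050953.10) on chromosome 10 from 56377330 to 56402513 (plus).

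The nearest tested genes outside the 9, among those whose symbol could be placed in the annotation, had smaller differences between the sets than the gene beside them. limma called none of them, with or without the block. Ankrd44 beside Pgap1 had the largest difference among them (limma adjusted p = 0.9997), at 0.03 in cultures 10 and 11 and -0.29 in 35B and 35C. Gsta3, 83979 bp before Khdc1a, was at 0.45 and 0.20, and Rims1, on the far side of Khdc1c, at 0.19 and 0.22. The neighbours of Neb, Rif1 and Arl5a, were at 0.16 and 0.14 in cultures 10 and 11 and at 0.03 and 0.04 in 35B and 35C, where Neb itself was at 0.95 and 0.30. Of the genes annotated as overlapping any of the 9, the table held Gm13522, antisense to Neb, with 1 read in all libraries together.

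Among the 9, the levels over the 8 libraries followed a few shared courses, which are described with no test because culture set and treatment are common to all of them. Pearson's r on the log2-like scale was 0.990 between Khdc1a and Khdc1c, 0.988 between Tgfbr3 and Pgap1, 0.958 between Bbx and Pgap1 and 0.927 between Prex2 and Neb. The lowest was that of Prex2 and Bbx, at 0.216. Outside the 9, the closest course to Khdc1a was that of Smarca2, a chromatin remodelling ATPase (r = 0.993), which differed by 0.70 with vitC in cultures 10 and 11 and by 0.29 in 35B and 35C. Khdc1c was closest to Pdp2, a pyruvate dehydrogenase phosphatase (0.987), and Pgap1 to Lass6, a ceramide synthase (0.997), which differed by 0.22 and -0.13. For Tgfbr3, leaving aside a row that carries a date in place of its symbol, Lphn2, an adhesion receptor, was closest (0.994) at 0.13 and -0.21. Bbx was closest to Nnt (0.993), Prex2 to D17H6S53E (0.989), Neb to Map3k4 (0.990) and Gja1 to Lipo1 (0.985). For Hunk, Gm15085 was first (0.990) on 14 reads in all, followed by Eya1 (0.986), a phosphatase and transcriptional coactivator, at 0.33 and 0.56. With 364 genes over an r of 0.95 for Tgfbr3 and 2 for Gja1, the closeness of a single gene carries unequal weight.

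In the families of the 9 genes, no other gene was called by limma for the difference in response, with or without the block. The block fit with edgeR, which called 0.239% of all genes, called Lefty1, Lefty2 and Tdgf1 of the 34 TGF-β genes and Sox13 of the 29 HMG-box genes, with the lower response in cultures 10 and 11 for each of them (log2 differences of -1.22, -0.83, -0.41 and -0.65). Of the KH-domain and subcortical maternal complex list, 7 genes other than Khdc1a and Khdc1c were tested, with differences between -0.22 (Dppa5a) and 0.18 (Nlrp5, on 5 reads in all). Nlrp14, an oocyte gene of the same list, was higher with vitC by 0.40 and 0.41 in the sets (limma adjusted p = 0.000437 for the mean), with -0.01 between the sets. Dppa5a was lower with vitC by 0.36 and 0.14 (limma adjusted p = 0.0484 for the mean). Of 2-cell stage genes, 3 of 21 listed were tested, and Zscan4c and Dub1, the furthest from equal, had 19 and 13 reads in all and differed by 0.14 and 0.09 between the sets. Zscan4d, at 1.12 CPM or less, was higher with vitC by 0.20 and 0.27 in the sets (limma adjusted p = 0.049 for the mean).

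The TGF-β, activin and BMP list, to which Tgfbr3 belongs, held 34 other tested genes, and their differences lay between -0.32 and 0.30 with a median of 0.05. For the mean vitC difference over both sets, 7 of 34 fell and 0 rose, where 2.1% of all genes fell. They were Tgfb1, Gdf3, Lefty1, Lefty2, Tdgf1, Eng and Skil. Tdgf1, a co-receptor of Nodal, was lower by 0.56 in cultures 10 and 11 and 0.24 in 35B and 35C, and the Nodal antagonist Lefty1 by 0.66 and 0.34, so the directions were equal in the sets where those of Tgfbr3 were opposite. The count of 7 was 9 with the block, stayed at 7 without control replicate 1, and was between 1 and 4 when any other library was left out, with the 1 reached without control replicate 2 or vitC replicate 1.

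WNT targets, listed because CHIR-99021 acts on that pathway, differed between the controls. Cdx2 and T of this list are also counted with the trophoblast and mesendoderm markers above, so these shifts are not separate. Of 14 tested, 13 were higher in the controls of cultures 10 and 11 and 0 lower, where 11.6% of all genes were higher, with a median control difference of 0.79 against 0.00 over all genes. Without any 1 library the count was between 11 and 13. Sp5, Axin2 and Lef1 stood 1.42, 0.97 and 1.23 higher in the controls of cultures 10 and 11 (limma adjusted p = 5.19e-07, 2.83e-07 and 2.83e-07). None was called for the difference in vitC response, in which Sp5 stood 0.41 and Dkk1 0.37 higher in cultures 10 and 11. ERK targets, listed for PD-035901, were higher in these controls for 4 of 16 and lower for 0, led by Egr1 at 1.43 (limma adjusted p = 7.98e-05), and the count was 1 without control replicate 1 or control replicate 4.

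Among the remaining families, the largest sizes of difference between the sets were those of Sox13 (-0.41) and Lef1 (0.35) of the HMG-box list, in which Bbx stood at 0.51. Tnni1 (0.32) led the sarcomere list beside Neb, and Tjp1 (0.27), which encodes a partner of connexin 43, the connexin list beside Gja1. In the list of Rac exchange factors and PI3K signalling, Vav3 (0.20, on 7 reads in all) and the phosphatase gene Inpp5d (-0.13) were furthest from equal. For Snrk and Sik1 of the AMPK-related kinases the values were -0.22 and -0.22, and for Pigg and Pigx of GPI anchor synthesis -0.21 and 0.18. Inpp5d rose with vitC in the mean of both sets by 0.36 (limma adjusted p = 0.000165) and, as with Hunk, was higher in the controls of cultures 10 and 11. In the controls, where 11.6% of all genes were higher and 8.9% lower in cultures 10 and 11, 8 of 29 HMG-box genes were higher and 1 lower, and the 8 became 5 without control replicate 1 or 4. Of the Rac and PI3K list 7 of 22 were higher and 0 lower, beside the same shares of all genes, and the 7 became 3 or 4 when a control library was left out.

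**Figure D5:**
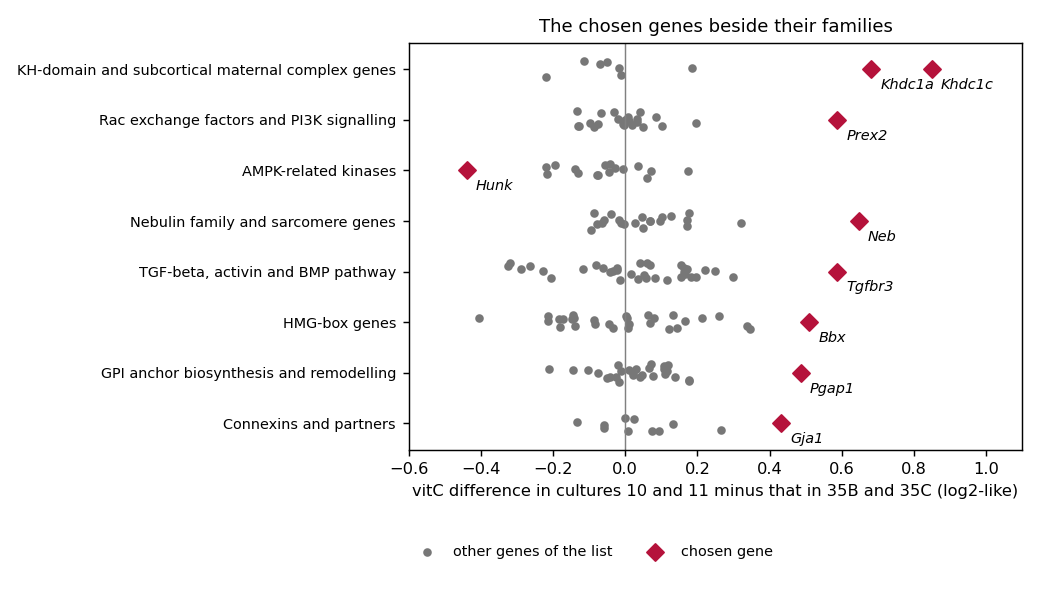
Response to vitC in cultures 10 and 11 minus that in 35B and 35C (x axis, log2-like scale) for the 9 chosen genes (red diamonds) and the other tested genes of 8 lists (grey points, spread vertically for view). Each chosen gene lies beyond the other members of its list in its own direction; it was chosen for that difference.

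The hESC libraries were not used in the choice, and 7 of the 9 genes had a gene of the same symbol there. Each condition was represented by 1 library, so no test was possible, and the limits are exact Clopper-Pearson limits at 95% for counting error only. TGFBR3 had 103 reads in the control and 70 with vitC, a log2 ratio of -0.72 (-1.18 to -0.27). BBX had 1804 and 1800 reads, a ratio of -0.16 (-0.26 to -0.07) at the depths of these libraries, and GJA1 23921 and 25870 reads, a ratio of -0.05 (-0.07 to -0.02). The intervals of these 3 genes lay below 0. Those of PREX2 (0.10, from -0.04 to 0.24), HUNK (-0.14, from -0.32 to 0.04) and PGAP1 (-0.03, from -0.18 to 0.12) included 0. NEB had 13 and 5 reads, and its interval from -3.38 to 0.04 allows no direction. In the mESCs PREX2's counterpart was 2.04-fold to 3.55-fold higher with vitC, and HUNK's 1.73-fold to 2.77-fold, in cells of another species, medium and RNA preparation.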

How the data were processed

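Total RNA of 8 mESC libraries and polyA RNA of 2 hESC libraries was sequenced from directional preparations, and per the labels rRNA depletion or mRNA isolation was used. The authors used SQuIRE for mapping (mm10 and hg38) and counting, and the processing notes list Trim Galore, HISAT2 and DESeq2 without versions. Gene values were deposited as variance-stabilised log2-like values, and the authors' expected counts of repeat subfamilies were used here only for the share of ribosomal RNA. 3 other columns of per-sample values were not used.

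Gene reads were recovered by inverting the transformation, which gave whole reads within 0.01 for 100% of the values above the lowest. Counting precision is set by the 3354852 to 6921305 recovered reads per mESC library and the 15367652 and 17188555 of the hESC libraries. CPM uses these totals. The main test was limma 3.58.1 (trend) in R 4.3.3 with 4 means (control and vitC in each culture set), with Benjamini-Hochberg adjustment and a threshold of 0.05. It was tested on simulated data with no control difference between the sets and no deviation shared by the libraries of a culture. That simulation therefore does not measure how often differences are missed in paired libraries such as these. The fits with the replicate block were not tested in this way. Alternatives were the replicate block, edgeR 4.0.16, DESeq2 1.42.0, other filters, quantile normalization, no trend and each library left out.

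The numbers pair the libraries, as both libraries of a number carry 1 culture label. Their deviations correlated at 0.626 to 0.765 from the group means and at 0.194 to 0.247 from the means of each set and condition. The control level cannot be fitted with the block, since a number belongs to 1 set.

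Coordinates and transcripts are from GENCODE vM21 (GRCm38). Neighbours were sought among tested genes whose symbol names 1 gene there, so tested genes under other symbols were not considered. The 9 genes, the gene lists and the tests were chosen with earlier results of these data known. Genes named beside the 9 are the closest by Pearson's r, the nearest tested neighbours, those of each list past the threshold for the difference or the 2 furthest from equal, and the human genes of the same symbol; list members called for the controls or the mean difference, and the 4 further genes called with the block, were named after their values were seen. The result of 1 marker list is not reported here.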

Additional observations from a re-analysis of the deposited data

Results flagged for a closer look

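The difference in vitC response between cultures 10 and 11 and cultures 35B and 35C was past the threshold for each of the 9 genes in the limma fit with the replicate block, which tests the difference itself. On the log2-like scale it was 0.68 for Khdc1a, 0.85 for Khdc1c, 0.59 for Prex2, -0.44 for Hunk, 0.65 for Neb, 0.59 for Tgfbr3, 0.51 for Bbx, 0.49 for Pgap1 and 0.43 for Gja1. The genes were chosen for this difference, so these values describe the choice. Dixon's test on the 4 libraries of each condition marked no library as standing apart in any of the 18 groups of values checked, where chance gives about 1 in 20. Each group held 2 libraries of cultures 10 and 11 and 2 of 35B and 35C. Where the sets stand apart, as these genes were chosen to do, the test cannot mark a single library. Its result for such groups is therefore no evidence on single libraries.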

How the results depend on the processing

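The count of genes called for the difference in vitC response was 0 without and 13 with the replicate block in limma, and 35 with the block in edgeR. It was 0 in all 8 fits that leave out a library. For the control levels, the 3004 calls became 1835 with DESeq2 and between 1362 and 3022 without 1 library, lowest without control replicate 1. For the mean vitC difference, the 838 calls became 1938 with the block, 2293 with edgeR and the block, 380 with DESeq2, and between 312 and 752 without 1 library, lowest without control replicate 2. Where a left-out library leaves 1 sample in a set, that sample is assumed to vary like the others. The difference of Khdc1a was reversed on recovered reads, at -1.65 with edgeR, -1.004 with DESeq2 and -1.65 with edgeR and the block, where its reads in 35B and 35C were 0, 0, 0 and 2. The other eight genes kept their sign in all 15 settings with a value. The smallest difference in size without 1 library was 0.27 (Gja1). Scaling the hESC libraries by size factors left the same 3 intervals below 0. With 2 pairs in each set, precision is limited by the number of cultures.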
